A study of Mus musculus with 2 samples.

Results

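Expression of complement genes was described in 2 mouse brain sections taken after a traumatic injury. The 8 genes were chosen by symbol, and all 8 were found among the 19070 genes counted in each section. They are C1qa, C1qb and C1qc, which encode the chains of the recognition molecule C1q, C4b and C3, which encode the components cleaved downstream of it, C3ar1 and C5ar1, which encode the receptors for the released C3a and C5a fragments, and Serping1, which encodes the C1 inhibitor. Both sections came from male C57Bl6 mice, 3 months old per the labels, that had received a controlled cortical impact (CCI), a piston strike on the exposed brain surface above the right parietal lobe. 1 coronal section of 1 mouse was taken 3 days after CCI and 1 section of another mouse 28 days after CCI. Formalin-fixed, paraffin-embedded tissue was profiled with Visium HD, in which probe pairs on the transcripts are captured on a grid of barcoded squares. A sham-operated section was not analysed here, so the side opposite to the impact served as the reference, and 1 mouse per time point leaves no measure of the spread between animals.

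Complement is a cascade of secreted proteins that tags material for removal. In the classical pathway C1q binds its target, the associated proteases cleave C4 and C2, and the resulting convertase cleaves C3, whose fragments coat surfaces and signal to cells through C3aR, while C5aR binds the C5a fragment released from C5 further down the cascade. In the healthy brain C1q is made mainly by microglia, C4b by astrocytes and oligodendrocytes, and the C1 inhibitor restrains the proteases of the C1 complex.

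Values are unique molecular identifiers (UMIs) summed over 16 µm bins and scaled by the UMIs of all genes in the same area to counts per 1000000 (CPM). Intervals are 95% intervals for counting error only. The section at 3 days held 120615873 UMIs in 121967 bins and that at 28 days 82422389 UMIs in 105589 bins. The sides were parted at the midline, taken as the median array column of Gbx2, a gene of the thalamus. A phagocyte zone was drawn on the injured side from Cd68 and Lyz2, genes of phagocytes, and took 15.8% of its 64 µm tiles at 3 days and 21.3% at 28 days. Other genes of phagocytes are therefore high there in part because of how the zone was drawn. Bins in the zone carried fewer UMIs of all genes than those of the opposite side, with a mean of 595 against 1030.0 at 3 days and 532 against 839 at 28 days. The array cut off the lateral part of the injured side at 3 days and of the opposite side at 28 days, and at 28 days tissue was missing above the lesion. The sides therefore differed in makeup, and bins assigned to white matter by marker genes were 25.6% of injured-side and 13.4% of opposite-side bins at 3 days. In summed bins, fewer cells of a type and less RNA per cell cannot be told apart.

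The genes lie on 5 chromosomes of the mouse assembly GRCm38. C1qb, C1qc and C1qa stand side by side on chromosome 4 between positions 136880126 and 136898844. C3 (chr17:57203967-57228136) and C4b (chr17:34728139-34743902) share chromosome 17 but not a neighbourhood. The sequences before the transcription start are shown for C1qb and C1qc, neighbours whose ratios between areas lay close together, and for C3 and C3ar1, the component and the receptor of its released fragment. They are read 5′ to 3′ on the minus strand from RefSeq, leaving out bases that GENCODE places inside the gene, with matches to the motifs below in capitals.
C1qb, chr4:136886201-136886450: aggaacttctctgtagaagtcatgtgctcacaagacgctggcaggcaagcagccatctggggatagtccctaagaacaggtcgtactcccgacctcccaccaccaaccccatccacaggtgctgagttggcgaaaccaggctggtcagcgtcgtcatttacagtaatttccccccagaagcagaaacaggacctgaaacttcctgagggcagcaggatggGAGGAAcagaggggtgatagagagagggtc
C1qc, chr4:136892937-136893164: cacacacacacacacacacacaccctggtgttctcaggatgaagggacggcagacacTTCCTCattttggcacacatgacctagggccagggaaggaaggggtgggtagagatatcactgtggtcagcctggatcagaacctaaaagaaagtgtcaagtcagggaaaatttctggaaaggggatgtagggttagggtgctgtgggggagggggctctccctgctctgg
C3ar1, chr6:122856158-122856407: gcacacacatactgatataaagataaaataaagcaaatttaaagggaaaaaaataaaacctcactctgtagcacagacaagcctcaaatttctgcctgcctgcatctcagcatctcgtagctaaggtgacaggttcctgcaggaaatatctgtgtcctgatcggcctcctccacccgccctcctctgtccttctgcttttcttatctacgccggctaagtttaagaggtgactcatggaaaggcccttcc
C3, chr17:57228137-57228386: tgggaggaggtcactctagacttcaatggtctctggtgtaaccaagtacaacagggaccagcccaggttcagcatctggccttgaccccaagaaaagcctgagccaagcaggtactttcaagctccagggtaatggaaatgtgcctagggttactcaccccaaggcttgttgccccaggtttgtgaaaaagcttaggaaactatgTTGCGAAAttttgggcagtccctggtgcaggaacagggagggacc
Both strands were searched for GAGGAA, a core bound by the myeloid factor PU.1, for TTNNGCAA, a C/EBP-type motif, and for TTCNNNGAA, the interferon-gamma-activated motif. C1qb and C1qc each held 1 match to GAGGAA, C3 held 1 match to TTNNGCAA, and the window of C3ar1 held none of these letters. Of 32851 RefSeq promoters, 23.3% held GAGGAA, 9.56% TTNNGCAA and 7.02% TTCNNNGAA in the 250 bases before the start, so a match is common and describes the letters alone.

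The maps showed each group of genes in its own place. The C1q genes and C4b lined white matter on both sides and filled the tissue around the lesion. C3 was nearly absent from most of the tissue, and at 28 days 93.4% (92.7 to 94%) of its UMIs lay in the zone, which held 6.7% of all UMIs. At 3 days the zone held only 21.6% (19.6 to 23.7%) of the C3 UMIs, while 58.1% of them lay elsewhere on the injured side and 20.3% on the opposite side. The share of C1qa in the zone was 14.1% at 3 days and 61.7% at 28 days, of C4b 13.6% and 52.2%, of C3ar1 35% and 65.8%, and of Serping1 17.5% and 43%. The zone covered 2.88% of all UMIs at 3 days, so every one of these shares exceeded that of the tissue.

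**Figure D1:**
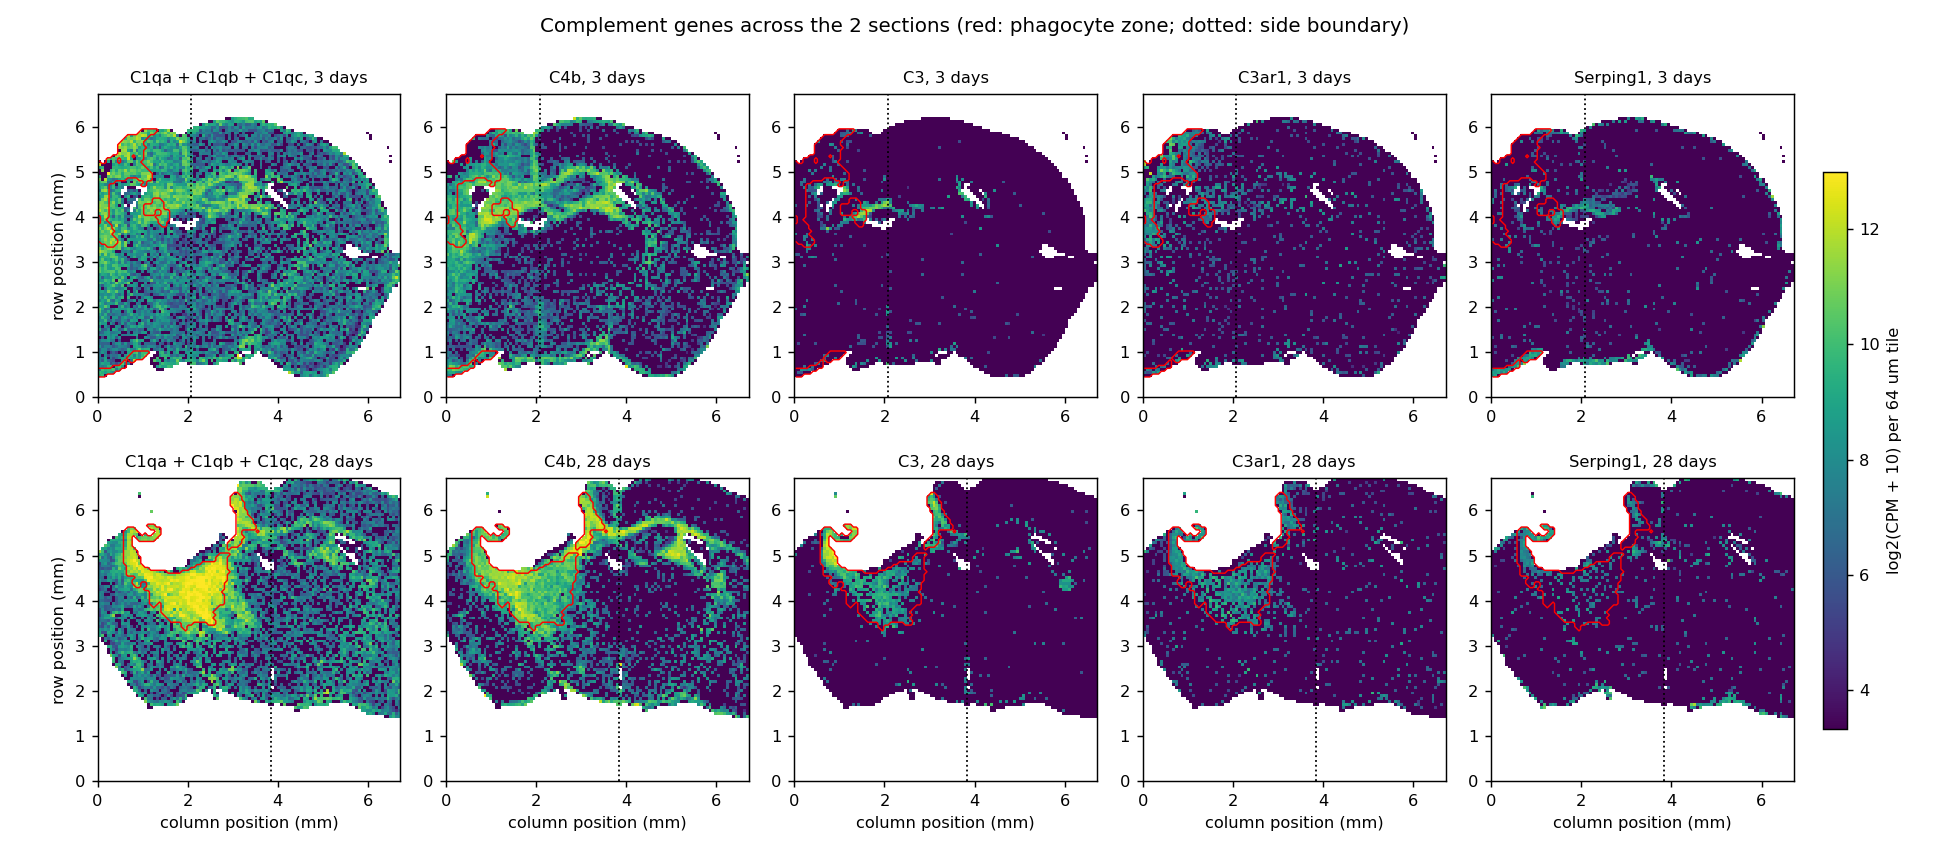
Level of complement genes in 64 µm tiles, as log2(CPM + 10), across the section at 3 days (upper row) and 28 days (lower row), with dorsal up, array positions in mm on both axes, the phagocyte zone outlined in red and the boundary between the sides dotted. C1q and C4b follow white matter and the lesion, C3 sits in thin strips at 3 days and inside the zone at 28 days, and Serping1 is seen along the tissue surface.

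Between the sides, all 8 genes were at least 2-fold higher on the injured side at both time points. Of all genes with at least 20 UMIs, 10.5% passed that fold at 3 days and 6.43% at 28 days. The median log2 ratio of the 8 genes was 1.62 at 3 days and 2.56 at 28 days, beside 0.14 and 0.04 over all genes. The C1q genes had close ratios. At 3 days C1qa had 238 CPM (233 to 243) on the injured and 97.9 CPM (95.8 to 100.1) on the opposite side, which is 1.28 in log2. At 28 days it had 506 against 78.9 CPM, or 2.68 in log2. The ratios of C1qb (1.31 and 2.44) and C1qc (1.33 and 2.45) lay close to these at both times.

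C4b and C3 differed more between the sides at 3 days than the C1q genes did. C4b had 302 CPM (297 to 308) on the injured and 80.4 CPM (78.5 to 82.4) on the opposite side at 3 days, and 375 against 82.3 CPM at 28 days. Its log2 ratios were 1.91 (1.87 to 1.95) and 2.19 (2.13 to 2.24). C3, the component on which all activation routes converge, had 34 against 3.93 CPM at 3 days and 150.3 against 3.36 CPM at 28 days. With log2 ratios of 3.11 (2.93 to 3.29) and 5.48 (5.25 to 5.72), it had the largest ratio of the 8 genes at both times. At 3 days 544 of the 1276 injured-side UMIs of C3 lay in a strip beside the midline, described under the other observations.

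The receptors had the next largest ratios at 3 days. C3ar1 had 42.8 against 8.07 CPM at 3 days and 46.1 against 6.04 CPM at 28 days, log2 ratios of 2.41 and 2.93. C5ar1 was sparse, with 297 injured-side and 116 opposite-side UMIs at 3 days and 107 and 20 at 28 days, and its log2 ratios were 2.49 (2.18 to 2.82) and 2.67 (2.00 to 3.47). Serping1 had the smallest ratio at both times, 1.08 (0.94 to 1.22) from 22.2 against 10.5 CPM at 3 days and 1.73 (1.56 to 1.91) from 26.4 against 7.93 CPM at 28 days. With TMM scaling, which sets the libraries on a trimmed mean over genes, its ratio at 3 days was 0.93 and under 2-fold.

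These ratios were lower at 3 days when the sides were weighted to the same marker regions. With the opposite side weighted to the regions of the injured side, an alternative added after the values were seen, 5 of 8 genes stayed past 2-fold at 3 days, beside 4.97% of all genes. C1qa (0.97), C1qc (0.96) and Serping1 (0.45) then fell short, C1qb (1.02) and C4b (1.07) stayed just past it, and C3 (2.10), C3ar1 (1.97) and C5ar1 (2.10) remained the highest. At 28 days 7 of 8 genes stayed past 2-fold, beside 4.43% of all genes, and Serping1 (0.89) did not. Regions were assigned by marker genes of the injured tissue itself, and 42.9% of zone bins at 3 days counted as white matter. The weighting therefore cannot tell the makeup of the sides from a change of the marker genes themselves.

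**Figure D2:**
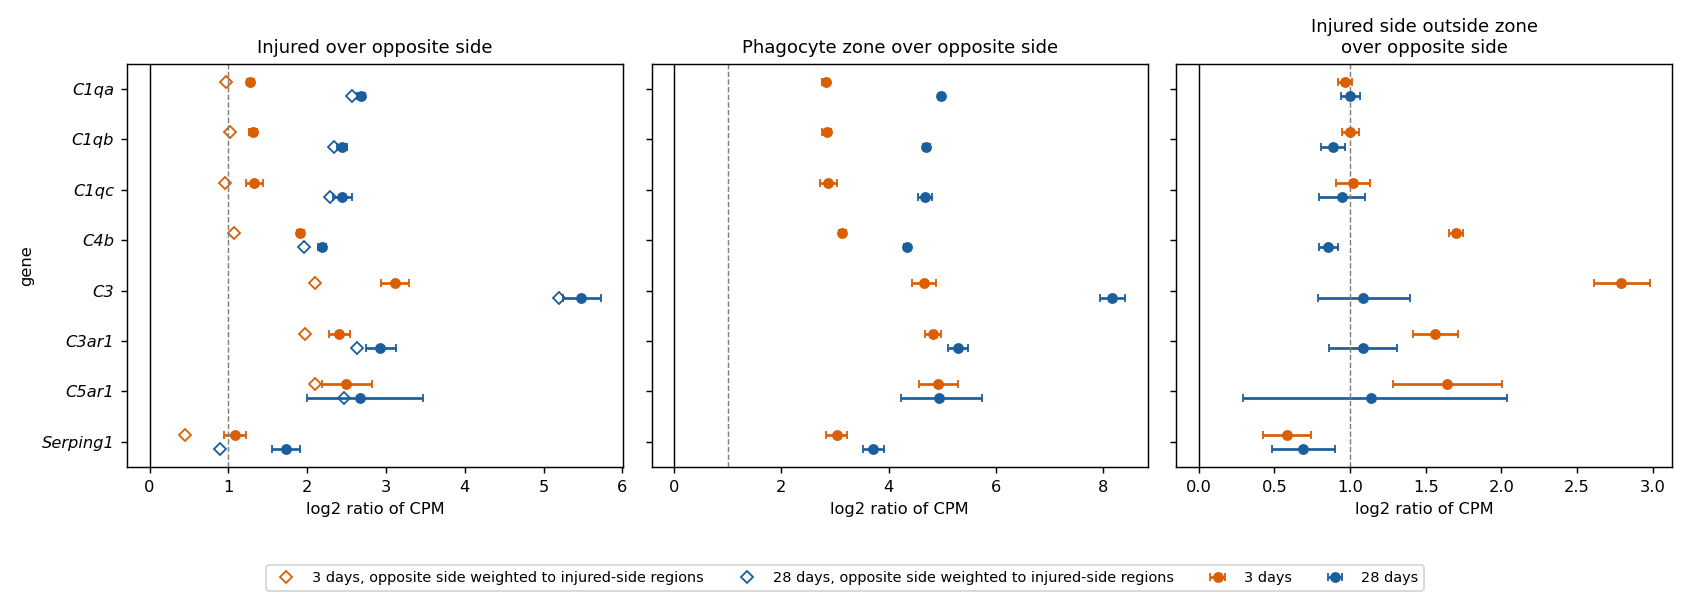
Log2 ratio of CPM for each complement gene (rows) at 3 days (orange) and 28 days (blue), for the injured side, the phagocyte zone and the rest of the injured side, each over the opposite side. Bars are 95% intervals for counting error, the dashed line marks 2-fold, and open diamonds in the left panel show the opposite side weighted to the regions of the injured side. All zone ratios lie past 2-fold, and C3 at 28 days has the highest, 8.17.

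In the phagocyte zone all 8 genes were again past 2-fold at both times, where 23.8% of all genes at 3 days and 19.0% at 28 days were. The median log2 ratio of the 8 genes over the opposite side was 3.09 at 3 days and 4.82 at 28 days, beside 0.17 and -0.02 over all genes. C1qa reached 694 CPM (666 to 722) in the zone at 3 days and 2500.2 CPM (2459 to 2542) at 28 days, log2 ratios of 2.82 and 4.99. C1qb gave 2.85 and 4.70, and C1qc 2.88 and 4.68. The chains kept their proportions at 3 days, when C1qa made up 54.3% of the C1q UMIs in the zone and 54.8% on the opposite side. At 28 days its share was 59.3% in the zone and 54.4% on the opposite side.

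C4b had 708 CPM (681 to 737) in the zone at 3 days and 1669 CPM (1634.6 to 1703) at 28 days, log2 ratios of 3.14 and 4.34. C3 had 99.6 CPM (89.4 to 111) at 3 days and 970.5 CPM (945 to 997) at 28 days, log2 ratios of 4.66 and 8.17. Of the 8 genes it had the largest difference between the time points in the zone. C3ar1 had 229 CPM in the zone at 3 days and 237 CPM at 28 days, with log2 ratios of 4.83 (4.68 to 4.98) and 5.29 (5.10 to 5.49). C5ar1 was lower in the later zone, 42.6 CPM (36 to 50.1) against 13.8 CPM (10.9 to 17.2), but also lower on the later opposite side, 1.4 against 0.443 CPM, so that its log2 ratio was 4.93 at both times. Serping1 had 85.8 and 104 CPM, with log2 ratios of 3.03 (2.84 to 3.22) and 3.72 (3.52 to 3.91). The sections differ in mouse, plane and tissue loss as well as in time, and these cannot be told apart.

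The zone was made of separate patches, and C3 and Serping1 differed among them. At 3 days the largest patch, of 315 tiles with 41.7% of bins in white matter and 38.2% in no marker region, had 24.6 CPM of C3 and 25.3 CPM of Serping1. A patch of 49 tiles near the midline, 79.4% of whose bins were white matter, had 618 CPM of C3 and 1747 CPM of C4b. A patch of 45 tiles at the base of the brain, 93.6% of whose bins were meninges, had 350.3 CPM of Serping1. The largest patch taken alone gave log2 ratios of 2.65 for C3 and 1.28 for Serping1, still past 2-fold. With tiles of meninges, ependyma and choroid plexus left out of both areas, the zone ratios at 3 days were 5.25 for C3 and 2.24 for Serping1. C3ar1 was highest in the largest patch, with 272 CPM against 124 and 98.9 in the smaller patches. At 28 days the 2 patches had close levels of C3, 969 and 979.9 CPM, whereas the smaller patch had more C4b, 3111 against 1457 CPM, and 1 of the 76 C5ar1 UMIs.

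Marker genes of several cell types also differed between the zone and the opposite side. The summed microglia list had 1277 against 295 CPM at 3 days and 2812 against 272 CPM at 28 days. The list of macrophages and monocytes had 369 against 13.6 CPM and 94.3 against 8.99 CPM. Fibroblast genes had 987 against 83.2 CPM and 375 against 65.6 CPM, astrocyte genes 5359 against 2423 CPM and 10746 against 2397 CPM, and neuron genes were lower in the zone at 1612 against 6363 CPM and 1616 against 6598 CPM. The oligodendrocyte list had 5022 CPM in the zone at 3 days against 1415 CPM and 3930.5 against 1914 CPM at 28 days. Mural cell genes had 1697 against 210.3 CPM and 315 against 233 CPM, and neutrophil genes, at 3 days, 73.1 against 0.989 CPM. Ependyma genes had 84.4 against 48.4 CPM and 198 against 39.1 CPM, and endothelium genes 493 against 145 CPM and 252 against 143 CPM. No gene of these lists was at 0 in either area, and their part in the result was not tested. Counted per UMI of the microglia list, C1qa was at 0.543 in the zone and 0.332 on the opposite side at 3 days, and at 0.889 and 0.29 at 28 days. C3ar1 per microglia UMI was 0.18 against 0.0273 at 3 days and 0.0843 against 0.0222 at 28 days. Both genes were thus higher in the zone relative to these microglia genes too.

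With distance from the zone the levels approached those of the opposite side, at a pace that differed among the genes. Distance was taken to the nearest zone bin of any patch. The bands at 3 days therefore pool distances from the largest patch, the midline patch and the basal patch of meninges. Within 100 µm and from 100 to 250 µm all 8 genes were past 2-fold at both times, beside 18.0% and 14.5% of all genes at 3 days and 8.49% and 6.96% at 28 days. From 250 to 500 µm 4 of 8 were past it at 3 days and 3 at 28 days, where 9.79% and 3.38% of all genes were. From 500 to 1000 µm none was, beside 3.12% and 1.47% of all genes, and from 1000 to 2000 µm none was, beside 4.64% and 2.91%. At 28 days 63 bins lay farther away, and this band was left out for its few UMIs. Over the whole injured side outside the zone, 6 of 8 at 3 days and 4 of 8 at 28 days were past 2-fold, against 7.15% and 2.10% of all genes. There the C1q genes lay near the 2-fold line, with log2 ratios from 0.97 for C1qa to 1.02 for C1qc at 3 days. At 28 days C1qa was just past it, and C1qb (0.89) and C1qc (0.95) were under it. C4b had 1.70 and 0.86, C3 2.79 and 1.09, C3ar1 1.56 and 1.08, and Serping1 stayed under 2-fold with 0.58 and 0.69.

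C1qa had 382 CPM within 100 µm of the zone at 3 days, 191 CPM at 250 to 500 µm and 115 CPM at 1000 to 2000 µm. At 28 days it started higher and ended lower, with 582, 161 and 87.3 CPM in the same bands. The summed microglia list had 831, 476 and 346 CPM in these bands at 3 days and 903, 398 and 283 CPM at 28 days. It had 295 and 272 CPM on the opposite side, and its part in the C1qa levels was not tested. C4b was as high within 100 µm as in the zone at 3 days, 716 against 708 CPM, and still 255 CPM at 250 to 500 µm. At 28 days it dropped from 1669 CPM in the zone to 847 within 100 µm and 103 at 250 to 500 µm. C4b thus stayed above its opposite-side level over a longer distance in the section at 3 days. The summed oligodendrocyte list moved with it, at 4727 CPM within 100 µm and 2155 CPM at 250 to 500 µm in the earlier section, above its 1415 CPM on the opposite side. In the later section it had 3449.9 and 1139 CPM in these bands, the second below its 1914 CPM on the opposite side, while C4b there was at 103 against 82.3 CPM. The astrocyte list also fell with distance, from 5877 CPM within 100 µm to 3166 CPM at 250 to 500 µm in the earlier section and from 5882 to 3005 CPM in the later one, and was above its opposite-side 2423 and 2397 CPM in these bands of both. The part of the oligodendrocyte and astrocyte lists in the C4b levels was not tested.

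C3 had the most different profiles at the time points. At 3 days it was not higher in the zone than beside it, with 99.6 CPM inside, 113 within 100 µm, 52.8 at 100 to 250 µm and 39.7 at 250 to 500 µm, before 3.61 at 500 to 1000 µm. Of its UMIs on the injured side outside the zone, 532 of 930 lay in tiles of meninges, ependyma or choroid plexus. At 28 days it went from 970.5 CPM in the zone to 42.3 within 100 µm and 3.9 at 250 to 500 µm. C3ar1 declined from the zone at both times, with 72 and 43.7 CPM within 100 µm and 23.4 and 13.6 CPM at 250 to 500 µm. Serping1 had 36 and 31.5 CPM within 100 µm, and was lower at 1000 to 2000 µm at 3 days (5.95 CPM) than on the opposite side (10.5 CPM). At 28 days it was higher in that band (12.0 CPM) than on the opposite side (7.93 CPM).

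**Figure D3:**
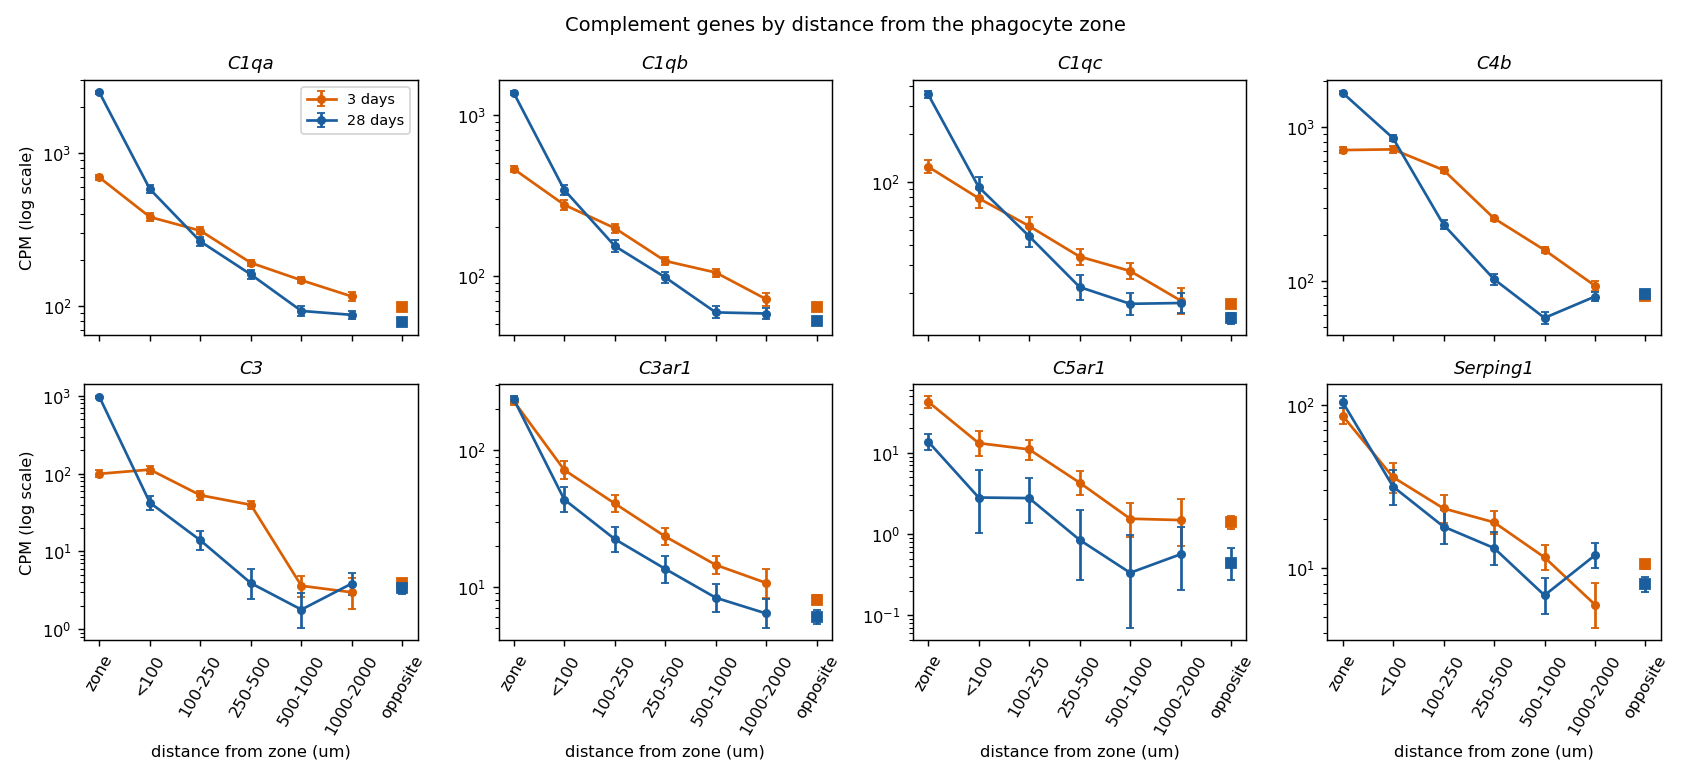
CPM (log scale) of each complement gene in the phagocyte zone, in bands of distance from it on the injured side (circles joined by lines) and on the opposite side (squares), at 3 days (orange) and 28 days (blue), with 95% Poisson intervals. At 3 days C3 is as high within 100 µm (113 CPM) as in the zone (99.6 CPM), and at 28 days it is 970.5 CPM in the zone and 42.3 CPM beside it.

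The genes also had their own anatomy on the opposite side. Tiles were assigned to regions by marker lists that held none of the 8 genes. C1qa was highest in white matter (320.1 CPM at 3 days, 247 at 28 days) and meninges (291 and 259) and low in thalamus (60 and 54.6). C4b ranged from 786 and 655 CPM in ependyma, the lining of the ventricles, and 537 and 609.8 in white matter, to 13.7 in upper cortical layers at 3 days and 2.92 in cortical layer 5 at 28 days. C3 was highest in ependyma, 127.6 and 67.3 CPM, and had 4 UMIs in the 549 thalamic tiles at 3 days. Serping1 was highest in meninges, 194 and 234 CPM. Meninges, ependyma and choroid plexus together held 55.5% and 56.4% of its opposite-side UMIs, against 8.92% and 7.69% of those of C1qa.

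Tiles of 1 marker region were also compared between the sides. A tile of the zone was assigned by the marker genes found there, and need not match its region on the opposite side. In white matter 3 of 8 genes were past 2-fold at 3 days, namely C3, C3ar1 and C5ar1, against 5.09% of all genes, and 8 of 8 at 28 days, against 6.51%. C1qa in white matter had 547 CPM on the injured side at 3 days, with a log2 ratio of 0.77 (0.67 to 0.87). The later section had 1590.2 CPM, with a log2 ratio of 2.69 (2.58 to 2.80). C4b in white matter had 984 and 1834 CPM, log2 ratios of 0.87 and 1.59. At 3 days both ratios were smaller than those between the whole sides. Of the injured-side white matter tiles, 157 of 637 lay in the zone at 3 days and 261 of 518 at 28 days. With these left out, 3 of 8 genes were past 2-fold at 3 days, beside 2.47% of all genes, and 4 of 7 at 28 days, beside 1.95%. The log2 ratio of C1qa was then 0.48 (0.37 to 0.59) and 1.05 (0.90 to 1.21).

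The thalamus, the deep relay to the cortex, showed no gene past 2-fold at 3 days among the 6 with enough UMIs, where 2.83% of all genes were, and 6 of 7 at 28 days, where 3.37% were. C1qa had 88.7 against 60 CPM there at 3 days and 421 against 54.6 CPM at 28 days, a log2 ratio of 2.94 (2.76 to 3.14). C4b had 105 against 15 CPM at 28 days, and Serping1 3.57 against 2.92 CPM. Thalamic tiles outside the zone had 332 CPM of C1qa at 28 days, and 5 of 6 genes were past 2-fold there, beside 2.65% of all genes. The 18 thalamic tiles inside the zone held 3 UMIs of C3.

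Ependyma, meninges and choroid plexus line the fluid spaces. In ependyma 2 of 7 genes were past 2-fold at 3 days, C1qa (1.11) and C3ar1 (1.68), against 2.53% of all genes, and 7 of 7 at 28 days, against 7.09%. With the tiles of the zone left out, 2 of 7 were past it at 3 days (2.60% of all genes) and 0 of 4 at 28 days (2.07%). C3 in ependyma of the injured side had 237 CPM at 3 days and 1696 CPM at 28 days, log2 ratios of 0.89 (0.54 to 1.25) and 4.63 (4.09 to 5.28). In the 35 ependymal tiles within the zone at 28 days C3 reached 2638 CPM, and in the ependyma outside it 85.9 CPM, beside 67.3 CPM on the opposite side.

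In meninges 3 of 8 genes were past 2-fold at 3 days and 5 of 8 at 28 days, against 4.08% and 4.10% of all genes. Outside the zone 1 of 8 and 1 of 7 remained past it, beside 3.33% and 1.67%, and C3 was that gene at both times. C3 in meninges of the injured side had 262 against 36.1 CPM at 3 days and 359.7 against 9.59 CPM at 28 days. Meningeal tiles outside the zone gave C3 log2 ratios of 3.30 (2.94 to 3.69) and 1.36 (0.21 to 2.87), the later from 25.9 CPM. Serping1, although highest in meninges, had log2 ratios there of 0.37 (0.17 to 0.57) and 0.02 (-0.25 to 0.29). In choroid plexus 1 of 7 genes was past 2-fold at 3 days (C3, 1.20), where 4.22% of all genes were, and 0 of 4 at 28 days, where 0.929% were. Outside the zone that call was lost, with C3 at 0.81 and 0 of 7 genes past 2-fold (4.23% of all genes), and no choroid plexus tile lay in the zone at 28 days.

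In cortical layer 5 all 4 genes with enough UMIs, C4b and the C1q genes, were past 2-fold at 3 days, beside 4.75% of all genes, and 1 of 3, C4b, was at 28 days, beside 1.93%. In cortical layer 6 the counts were 4 of 4 at 3 days (9.36% of all genes), from 11 injured-side tiles of which some lay in the zone, and 0 of 3 at 28 days (2.86%). C4b in layer 5 had 234 against 25.8 CPM at 3 days and 64.4 against 2.92 CPM at 28 days, from 12 and 26 injured-side tiles. In upper cortical layers at 28 days it had 39.9 against 3.6 CPM, a log2 ratio of 3.41 (2.37 to 4.72), while that of C1qa was 0.47 (-0.02 to 0.94). In the dentate gyrus at 28 days all 4 genes with enough UMIs were past 2-fold, beside 3.93% of all genes, and C3 had 21 UMIs in 13 injured-side tiles and 1 in 24 opposite-side tiles.

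In striatum and amygdala 8 of 8 genes were past 2-fold at 3 days, beside 10.3% of all genes, and 7 of 7 at 28 days, beside 5.13%. With the zone left out the counts were 7 of 7 (9.09% of all genes) and 4 of 6 (3.02%). C1qa had 466 against 95.5 CPM there at 3 days, from 86 and 290 tiles, and C4b 539 against 78.5 CPM. The habenula, a small nucleus beside the midline, showed no gene of 3 at least 2-fold higher at either time, where 3.53% and 2.23% of all genes were. There C1qb was at least 2-fold lower at 3 days, with 1 UMI in 12 injured-side tiles and 19 in 34 opposite-side tiles, a log2 ratio of -1.69 (-7.62 to 0.41), and 6.89% of all genes were lower there.

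**Figure D4:**
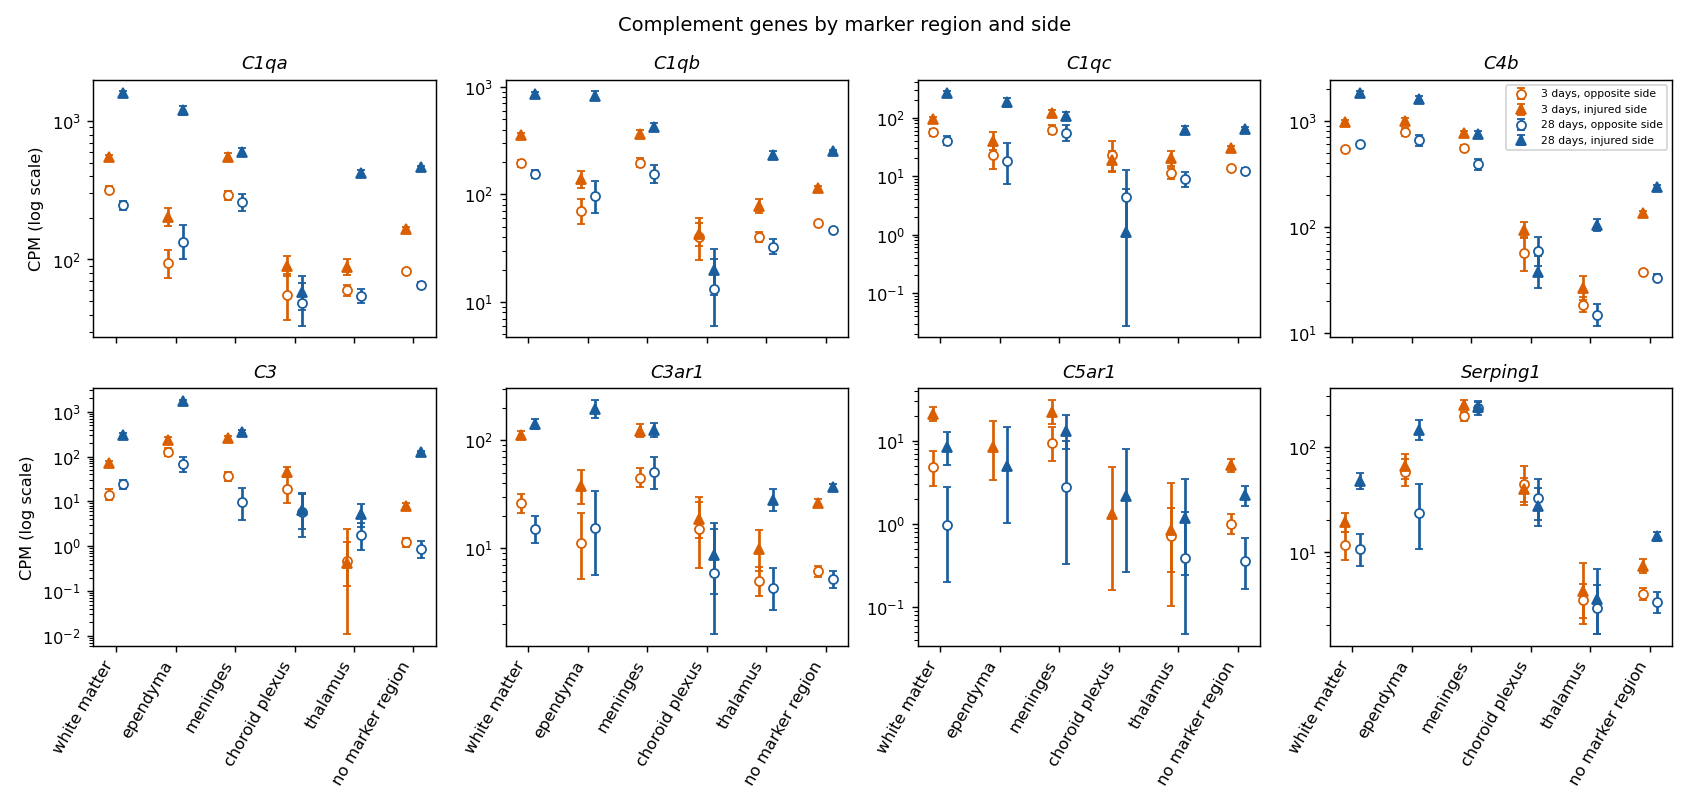
CPM (log scale) of each complement gene by marker region on the opposite side (open circles) and the injured side (filled triangles) at 3 days (orange) and 28 days (blue), with 95% Poisson intervals. Areas with 0 UMIs of a gene are not drawn. In thalamus the sides lie close at 3 days and C1qa is 421 against 54.6 CPM at 28 days.

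Within the zone the genes shared bins with different cell type markers. Bins above the 95th percentile for a marker list were set against the other bins of the zone, and a bin can hold several cells, so a shared bin does not name the cell of origin. Where a list had UMIs in too few bins to reach this percentile, all bins with any UMI of it were taken. C1qa was higher in microglia-rich bins, 2387 against 631 CPM at 3 days and 5405 against 2394 CPM at 28 days, log2 ratios of 1.92 (1.74 to 2.10) and 1.18 (1.08 to 1.27). On the opposite side this contrast was larger, with 846 against 78.7 CPM at 3 days and 575 against 66.9 at 28 days. C4b was higher in oligodendrocyte-rich bins of the zone, by 1.45 (1.23 to 1.66) and 0.97 (0.81 to 1.12) on the log2 scale, and in astrocyte-rich bins, by 1.03 and 0.47.

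C3 was higher in ependyma-rich bins of the zone at both times, with log2 ratios of 1.86 and 1.37, and in bins rich in choroid plexus genes, with 1.76 and 0.82. At 3 days its ratio was 2.56 (2.19 to 2.91) in astrocyte-rich, -2.34 in microglia-rich and -0.98 (-2.75 to 0.12) in macrophage-rich bins of the zone. At 28 days it was -0.42 (-0.69 to -0.18) in astrocyte-rich, -1.17 in microglia-rich and 1.60 in macrophage-rich bins. Bins rich in neutrophil genes at 28 days, whose list summed to 82.5 CPM in the zone and 3.85 CPM on the opposite side, had 3034 against 822 CPM of C3. The 205 neutrophil-rich and 409 macrophage-rich bins at 28 days were fewer than the 519 rich in microglia genes. Both sets were the bins with any UMI of the list, and they held more UMIs of all genes per bin than the other bins. The same was true of the zone bins rich in choroid plexus genes (165 at 3 days, 111 at 28 days) and, at 3 days, of the 209 rich in ependyma genes. Depth was not matched, and its part in these ratios was not tested. At neither time was C3 higher in microglia-rich than in other bins of the zone. Outside the zone it was, with microglia-rich ratios of 1.28 and 2.06 in the rest of the injured side and 0.95 (0.05 to 1.65) at 3 days on the opposite side, where it had 12.2 against 3.15 CPM at 28 days. Those opposite-side values rest on 15 and 13 UMIs in microglia-rich bins. Astrocyte-rich bins at 28 days, where C3 was not higher within the zone, had ratios of 3.03 in the rest of the injured side and 3.42 on the opposite side. At 3 days 249 of its 346 zone UMIs lay in the small midline patch, so these ratios also set that patch against the rest of the zone.

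C3ar1 was higher in macrophage-rich bins of the zone, with log2 ratios of 1.71 (1.34 to 2.05) and 1.01 (0.79 to 1.21), and in microglia-rich bins, with 1.40 (1.01 to 1.74) and 0.77 (0.41 to 1.10). Serping1 was higher in fibroblast-rich bins, 354 against 66.6 CPM at 3 days and 320.0 against 82.1 CPM at 28 days. It was also higher in fibroblast-rich bins of the opposite side, 114 against 5.91 CPM and 87.6 against 4.63 CPM. At 3 days 177 of the 298 zone UMIs of Serping1 lay in the basal patch of meninges, so its zone ratios also set that patch against the rest. Its log2 ratios were 2.34 and 1.32 in zone bins rich in choroid plexus genes, and 2.05 and -0.21 in those rich in mural cell genes. The choroid plexus sets were the bins with any UMI of that list, and depth was not matched there. Every gene had a ratio below 0 in neuron-rich bins of the zone at both times, from -0.51 for C5ar1 to -3.35 for C3 at 3 days. The latter rests on few UMIs, with an interval of -9.24 to -1.45. The interval of C5ar1 at 3 days, -2.57 to 0.71, included 0.

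**Figure D5:**
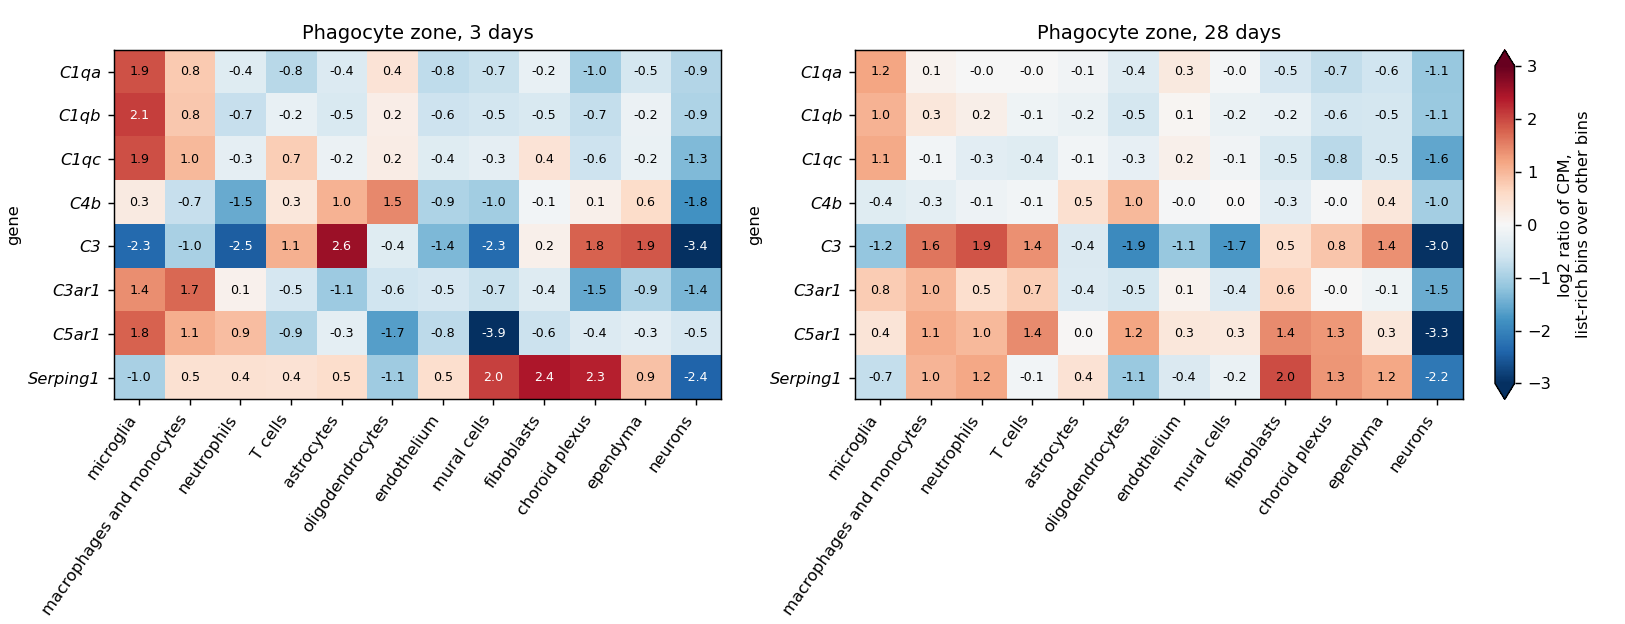
Log2 ratio of CPM of each complement gene (rows) in bins of the phagocyte zone rich in a marker list (columns) over the other bins of the zone, at 3 days (left) and 28 days (right), with colours capped at 3 in either direction. C1q genes are highest with microglia genes, Serping1 with fibroblast genes, and C3 is highest with astrocyte genes at 3 days (2.56) and with neutrophil (1.88) and macrophage (1.60) genes at 28 days. The neutrophil and macrophage sets at 28 days are bins with any UMI of the list and hold more UMIs of all genes per bin. The same holds for the choroid plexus and T cell sets at both times and the ependyma set at 3 days. The neutrophil set at 3 days is also the bins with any UMI of the list.

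Across tiles of 8 by 8 bins over the whole section, the genes most like each member in level were found by Pearson correlation of log2(CPM + 10) over 1954 tiles at 3 days and 1726 at 28 days. Tiles of 1 section share a library and differ in depth, so these are descriptions. Among the genes nearest to C1qa at 3 days were C1qb (0.72), Fcer1g, Tyrobp and Ctss (0.66), and at 28 days Ctss (0.78), C1qb, Apoe and Tyrobp. Nearest to C4b at both times was Gfap, the astrocyte filament gene (0.84 and 0.86). C3 had weaker partners at 3 days, A2m (0.53), Lbp, Vim, S1pr3 and Lgals3, and stronger ones at 28 days, Lgals3 (0.76), Gpnmb, Lyz2, Apoe and Lcn2. C3ar1 was nearest to Fcer1g at 3 days (0.61) and to Lyz2 at 28 days (0.73). Serping1 was nearest to Slc13a4 (0.69), Aldh1a2, Col1a1, Itih2 and Col1a2 at 3 days, and to Vim (0.60), Cd74, Fmod, H2-Aa and Dcn at 28 days. C5ar1 had under 500 UMIs in each section and was not matched.

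The rest of the pathway held genes that were higher and genes that were lower in the zone. Of 39 other complement genes found in the files, 30 had enough UMIs in the comparison of the zone with the opposite side at 3 days, of which 16 were at least 2-fold higher and 4 at least 2-fold lower. At 28 days 11 of 27 were higher and 4 lower. Over all genes 23.8% and 19.0% were at least 2-fold higher and 12.4% and 14.6% at least 2-fold lower. Of the classical pathway genes, C1ra and C1s1 encode proteases of the C1 complex, and C2 encodes a component cleaved after them. C1ra, C1s1 and C2 were all past 2-fold, with log2 ratios of 2.19, 2.63 and 2.80 at 3 days and 2.51, 3.33 and 3.00 at 28 days. Of the terminal pathway genes 4 of 7 at 3 days and 3 of 7 at 28 days had enough UMIs, and none of these was at least 2-fold higher.

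The highest ratios belonged to receptors. Itgax, a chain of complement receptor 4, had 3.17 against 0.169 CPM at 3 days (11 and 14 UMIs) and 74.5 against 0.598 CPM at 28 days, log2 ratios of 4.24 and 6.94. It was followed by Cd93 (3.77) and Itgb2 (3.38) at 3 days and by Itgb2 (4.81) and Itgam (3.63) at 28 days. At the low end Susd4, which encodes a regulator expressed in brain, had 33.7 against 128.2 CPM at 3 days and 42.2 against 123 CPM at 28 days. C7, a component of the membrane attack complex, had 0 zone UMIs at 3 days and 2 at 28 days, and 90 and 57 UMIs on the opposite side. Masp2 at 3 days (-1.43, with an interval of -4.80 to 0.13 from 2 zone UMIs) and Csmd2 (-1.14) at 28 days were the others of the 3 lowest, and Csmd1 was also past 2-fold lower at both times (-1.28 and -1.07, from 103 and 156 zone UMIs). Neuron genes were lower in the zone as well, and their part in these ratios was not tested.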

How the data were processed

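Visium HD libraries of 2 brain sections were analysed from the deposited tables of raw UMI counts per gene and 16 µm bin, which the authors made with Space Ranger (4.0.1 per the file headers) from a mouse probe set. The build named in the submitters' processing notes is mm10, the assembly of the reference used here for positions and sequences. Probe counts do not see the whole transcript, so levels of different genes were not compared within an area. Shares of the C1q chains and counts per UMI of the microglia list were compared between areas only.

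The members, marker lists, zone rule and comparisons were chosen with earlier results of these data known. Bins under 100 UMIs were left out (1.93% at 3 days, 2.15% at 28 days), with medians of 836 and 596 UMIs per bin over all bins. The injured side was below array column 130 at 3 days and 240 at 28 days, the median columns of Gbx2. The zone held tiles of 4 by 4 bins whose CPM of Cd68 and Lyz2, over 3 by 3 tiles, passed the 99th percentile of the opposite side, in patches of at least 25 tiles. Regions were tiles whose mean log2 score for a marker list was at least 1, with 50 CPM added. Ratios used a pseudocount of 0.5 UMI and needed 20 UMIs over both areas. Intervals were exact Poisson for levels, exact conditional binomial for ratios and exact Clopper-Pearson for shares of UMIs, all at 95%. With 1 section per time point no p-value was computed. The ratio and its interval were tested on sums simulated with Poisson error, the error that the interval assumes. Clustering of UMIs within a section was not simulated. The other complement genes given by value were the 3 highest and 3 lowest of their list, those of the classical pathway, and Csmd1. Of the members, 5 had an entry among the RefSeq promoters. Python 3.11.15 with numpy 2.4.6, pandas 2.3.3 and scipy 1.17.1, and edgeR 4.0.16 for TMM (trimmed mean of M values) factors, were used.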

Additional observations from a re-analysis of the deposited data

How the results depend on the processing

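No side or zone ratio of a member changed sign under any alternative run. With marker-rich bins taken above the 90th percentile, 19 of 576 marker-rich ratios had the other sign. Where a list had UMIs in few bins, both percentiles chose the same bins, so those ratios could not change. This was so for neutrophil, T cell and choroid plexus genes in every area, and for macrophage and ependyma genes in most. Between the sides, 56 of 88 alternative values at 3 days and 68 of 88 at 28 days lay within the counting interval of the reported value, and in the zone 62 and 84 of 128. These counts include the alternative without a minimum of UMIs per gene, which cannot change a member ratio and lies within the interval by construction. The count of members past 2-fold between the sides at 3 days went from 8 to 5 with the opposite side weighted to the injured-side regions. It was 7 in 4 other settings, in which Serping1 fell under 2-fold: TMM scaling (0.93), UMIs per bin (0.98), the boundary 10 bins towards the injured side (0.95), and tiles of meninges, ependyma and choroid plexus left out (0.84), the last also chosen after seeing the data. In thalamic tiles at 3 days the count went from 0 to 2 with a region score of 1.5. The cause was not tested. TMM scaling moved all ratios by -0.15 (side) and -0.30 (zone) at 3 days and -0.05 and -0.15 at 28 days, and UMIs per bin in place of CPM lowered the zone ratio of C1qa to 2.03 and 4.33. No paired analysis was possible because each group held 1 section and the labels carry no shared replicate numbers.

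Depth limited C5ar1, with 20 UMIs on the opposite side at 28 days, and regions with few tiles. UMIs come from amplified libraries of 1 section, so intervals leave out differences between animals, planes and the parts of the brain captured.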

Other observations

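Much of the C3 of the injured side at 3 days lay in a strip of 1044 bins beside the midline, next to the zone but outside it, which was drawn after the map of C3 was seen. It held 544 of the 1602 C3 UMIs of the section (34%), at 498 CPM against 3.93 CPM on the opposite side. The same bins held 31.9% of the UMIs of Ttr, the transthyretin gene made by choroid plexus, and 26.2% of those of Kcnj13, another choroid plexus gene. Most other marker lists were raised there too, with fibroblast genes at 1341 against 83.2 CPM on the opposite side, ependyma genes at 261 against 48.4 CPM, mural cell genes at 602 against 210.3 CPM, astrocyte genes at 4197 against 2423 CPM and microglia genes at 651 against 295 CPM, while neuron genes were at 379 against 6363 CPM. Gfap, an astrocyte gene, was at 2899 against 314 CPM. The part of these cell types in the C3, C4b and Serping1 of the strip was not tested. C4b there was at 716 CPM and Serping1 at 132 CPM, against 80.4 and 10.5 CPM on the opposite side. The strip held 2.06% of the C1qa UMIs, at 322 CPM against 97.9 CPM on the opposite side. It held 1091289 of the 120484936 UMIs of all genes in the bins used. Over the injured side outside the zone, tiles of meninges, ependyma and choroid plexus held 57.2% of the C3 UMIs at 3 days and 23.5% at 28 days.

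At 28 days the opposite side had a weaker spot of C3, also drawn after the map was seen. Its 1112 bins held 34 of the 152 C3 UMIs of that side, at 76.3 CPM, and the list of oligodendrocyte genes was at 9804 CPM there against 1914 CPM on the whole opposite side. C4b in the spot was at 359 CPM and Serping1 had 3 UMIs.

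Serping1 had another place on the opposite side at 3 days. The 14 tiles of the dentate gyrus held 70 UMIs of Serping1, 115 CPM, with a UMI in 14 of 14 tiles and at most 8 in a tile. The fibroblast list was at 9.87 CPM in these tiles, below its 83.2 CPM on the whole opposite side. At 28 days the 24 opposite-side tiles held 6 UMIs and the 13 injured-side tiles 4. Too few dentate tiles of the injured side were found at 3 days to compare.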
